A study of Macaca mulatta with 6 samples.

Results

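Transcripts of 10 genes of the neurotrophin system were followed in libraries labelled as cortical neurons of rhesus monkeys after long exposure to morphine. The genes were the ligands BDNF and NTF3, the receptors NTRK2, NTRK3 and NGFR, the sorting receptors SORT1, SORCS1, SORCS2 and SORCS3, and the adaptor FRS2. They were taken by name, through the rhesus gene identifiers, from a table of 23191 genes, and all 10 reached the mean of 10 normalized counts over the 6 libraries that was set for testing, as did 16595 genes in all. NTF3 and NGFR lay closest to that limit, with means of 13.5 and 28.1 normalized counts. Polyadenylated RNA was sequenced from samples that the labels describe as neurons purified from the cortex of male Macaca mulatta, 3 to 4 years old. There were 3 libraries (replicates 1, 2 and 3) of a morphine group and 3 of a saline group. Morphine, an opioid agonist, was given as 3 subcutaneous injections daily over 90 days, with a starting dose of 3 mg/kg that was raised to 15 mg/kg on day 29, and saline animals received 0.5 mL/kg on the same schedule. No strain, genotype or cortical region beyond this is given in the labels. The protocol names 4 monkeys, 2 per group, so at least 2 of the 3 libraries of each group share an animal. P-values therefore measure only the spread between these libraries, and treatment cannot be told apart from differences between animals.

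Neurotrophins are secreted growth factors that are made as longer precursors and cut to their mature form. BDNF acts through the tyrosine kinase receptor NTRK2 (TrkB) and NTF3 (NT-3) mainly through NTRK3 (TrkC), while NGFR (p75NTR) binds all neurotrophins and, together with a sortilin family receptor, their uncut precursors. In the cortex BDNF is made chiefly by excitatory neurons, its transcription follows neuronal activity, and its signalling supports dendrites and synaptic plasticity. Activated Trk receptors recruit adaptors such as SHC proteins and FRS2, which lead to the Ras-ERK and PI3K-AKT pathways, and phospholipase C gamma.

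BDNF and FRS2 fell with morphine and the other 8 genes did not pass the test. Rise and fall stand for a limma adjusted p under 0.05, adjusted over all genes tested, on log2(normalized count + 1). Over all genes tested 27.9% were called, 12.9% as rises and 15.0% as falls, so that 2 calls among 10 genes are not more than that background. The 3 morphine libraries all lay above or all below the 3 saline libraries for 3 of the 10 genes (BDNF, FRS2 and SORT1), where 48.7% of all genes tested had such groups. Morphine was the lower group for 2 of these 3, BDNF and FRS2, and for 24.6% of all genes tested. The median log2 fold change was 0.01 over the 10 genes and 0.01 over all genes tested.

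**Figure D1:**
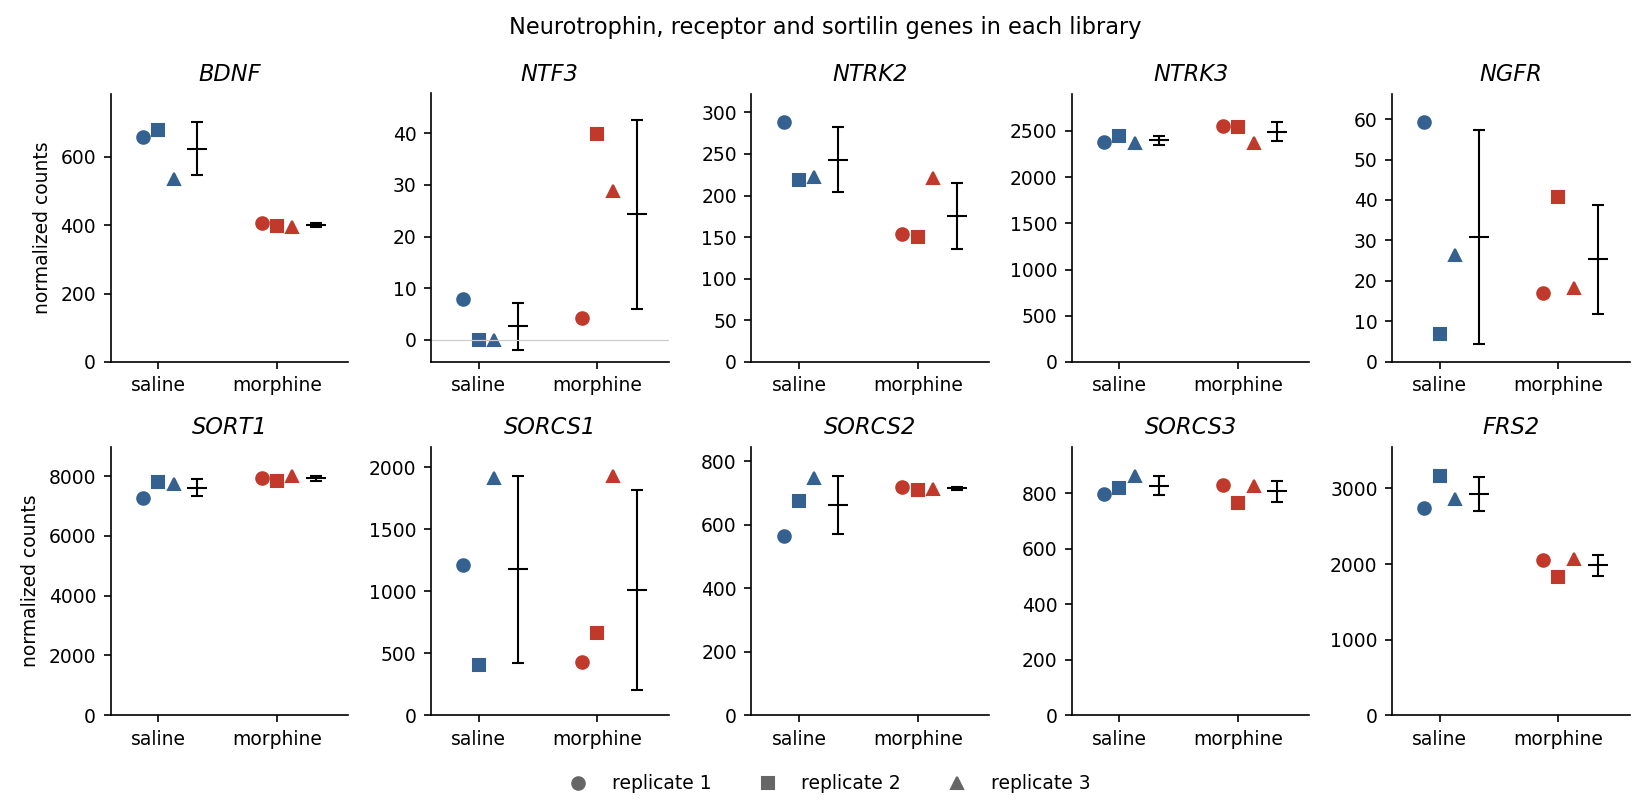
Normalized counts (vertical axes, linear, from 0 except for NTF3, where the SD bar reaches below 0) of the 10 genes in 3 saline libraries (blue) and 3 morphine libraries (red). Symbols mark the replicate number, and the bar beside each group is the mean with its SD. For BDNF and FRS2 the morphine libraries lie below the saline libraries, and for SORCS1 both groups spread widely, from 425 to 1928 and from 403 to 1916 normalized counts.

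The libraries held between 31238653 and 36345095 recovered reads. Although labelled as neurons, they held transcripts of every cell type for which a marker list was drawn up. Of the markers with a value, none had a mean of 3 normalized counts or less, and the lowest mean was 52.8. Means were 197809 for MBP (oligodendrocytes), 103022 for SLC1A3 (astrocytes) and 85285 for SNAP25 (pan-neuronal). Some listed markers had no value under their symbols. Among these were AIF1, CX3CR1, TMEM119, C1QA and C1QB of microglia, S100B and SOX9 of astrocytes, and OLIG1 and SOX10 of precursors. Of 14 pan-neuronal markers 6 fell and 3 rose, with a summed level of 250617 to 254613 normalized counts in morphine and 300869 to 310187 in saline libraries. Of 14 excitatory neuron markers 5 fell and 0 rose (sums of 202378 to 203942 and 221871 to 224099), and of 13 inhibitory neuron markers 3 rose and 2 fell (37358 to 38853 and 35933 to 37123). Of 10 astrocyte markers 5 fell and 2 rose (252576 to 255705 and 300527 to 305117), of 7 microglia markers 4 rose and 2 fell (7758 to 8315 and 5342 to 5681), and of 8 fibroblast and leptomeningeal markers 4 rose and 0 fell (6682 to 6810 and 5327 to 5441). Of 8 oligodendrocyte markers 3 rose and 3 fell (266512 to 268830 and 260599 to 265163), of 6 oligodendrocyte precursor markers 4 rose and 0 fell (23751 to 24242 and 19474 to 19742), and of 10 endothelial and mural markers 2 rose and 4 fell (15816 to 21561 and 17443 to 18556). In the 6 fits that each left out 1 library, 0 pan-neuronal markers rose, 2 or 3 excitatory markers fell, 1 or 2 inhibitory markers rose, 1 or 2 oligodendrocyte markers rose and 0 to 2 fell, and 2 or 3 precursor markers rose. Of 89 markers tested over all lists 52 were called (58.4%), 25 as rises and 27 as falls. Among all genes tested 27.9% were called. All of these markers had a mean of at least 50 normalized counts, a level at which a separate fit called 35.8% of genes. The sums weigh the most highly expressed markers of a list most. In bulk libraries fewer cells of a type and less RNA per cell cannot be told apart. The part of these shifts in the results on the 10 genes was not tested.

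BDNF (ENSMMUG00000008634), the ligand of NTRK2, had 406.0, 396.7 and 394.9 normalized counts in morphine replicates 1, 2 and 3, and 658.1, 677.6 and 534.7 in saline replicates 1, 2 and 3. The morphine libraries lay within a narrow band below all saline libraries, and the saline group was the wider one, with its replicate 3 the lowest. The group means were 399.2 ± 5.94 and 623.5 ± 77.5 normalized counts (SD, n = 3 libraries per group). BDNF was thus 1.55-fold lower in morphine, with a log2 difference of -0.63 ± 0.104 (SE), a 95% interval of -0.90 to -0.37 and a limma adjusted p of 0.0127. A larger absolute change was seen in 17.3% of all genes tested. The fall rested on 382 to 437 reads per morphine library and 507 to 676 per saline library, for which counting error alone is between 3.85% and 5.12%. BDNF passed in each of the 6 fits that left out 1 library, with log2 fold changes of -0.74 to -0.57. In the same libraries 5 of 14 excitatory neuron markers fell and 0 rose (2 or 3 fell without 1 library), while among 14 pan-neuronal markers there were 6 falls and 3 rises, and their part in the fall of BDNF was not tested. An antisense transcript overlaps the BDNF gene in human, and no source used here gives the strand setting of the counting, so sense and antisense reads cannot be told apart.

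The genes whose pattern over the 6 libraries was most like that of BDNF were USP1, a deubiquitinase of the DNA damage response, CTHRC1, a secreted protein with a collagen-like stretch, and CGGBP1, a protein that binds CGG repeats. Their Pearson correlations with BDNF on log2(value + 1) were 0.999, 0.998 and 0.997. Each was also lower in morphine and, among saline libraries, lowest in replicate 3: USP1 had 572.8, 573.8 and 550.6 normalized counts in morphine replicates 1, 2 and 3 and 915.7, 930.2 and 748.8 in saline replicates 1, 2 and 3. With 6 points that share a group difference high correlations are common. A correlation with BDNF beyond 0.9 in either direction was found for 3464 other genes tested (20.9%).

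NTF3 (ENSMMUG00000014646), the ligand of NTRK3, was close to the limit of detection. In morphine replicates 1, 2 and 3 its reads numbered 4, 44 and 30, and in saline replicates 1, 2 and 3 they numbered 8, 0 and 0, where a count of 0 allows up to 3 reads. Morphine replicates 2 and 3 were the high ones, while morphine replicate 1 lay below saline replicate 1, so the groups overlapped. The means were 24.3 ± 18.3 and 2.63 ± 4.56 normalized counts (SD, n = 3 libraries per group), and NTF3 reached the mean set for testing only through the morphine libraries. The NTF3 log2 fold change was 3.16 ± 1.22 (SE), with a wide 95% interval of 0.08 to 6.25 and a limma adjusted p of 0.113. With saline libraries at 0 this value moves with the pseudocount, from 1.82 at 5 to 3.80 at 0.5, and it ran from 2.59 to 4.22 without 1 library. DESeq2 on the recovered reads gave an adjusted p of 0.0165 and edgeR one of 0.0789, so the call depended on the test. In the authors' deposited table NTF3 has an adjusted p of 0.029. Among all genes tested 18.0% rose in DESeq2 and 16.4% in the authors' deposited table.

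NTRK2 (ENSMMUG00000023117), the receptor of BDNF, did not pass the test. Its values were 154.1, 150.7 and 221.0 normalized counts in morphine replicates 1, 2 and 3, and 288.1, 218.5 and 222.5 in saline replicates 1, 2 and 3. Morphine replicates 1 and 2 lay below all saline libraries, but morphine replicate 3 lay among saline replicates 2 and 3. On the log2 scale the difference was -0.48 ± 0.196 (SE), with a 95% interval of -0.98 to 0.02 and a limma adjusted p of 0.128. NTRK2 is transcribed by neurons as the full kinase and by astrocytes mainly as a shortened form without the kinase domain, and the table holds 1 value per gene, so the forms were not separated. Of 10 astrocyte markers 5 fell, 2 rose and 3 did not pass in these libraries, and their part in the values of NTRK2 was not tested.

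NTRK3 (ENSMMUG00000001386), the receptor of NTF3, differed little between the groups. It had 2554, 2547 and 2370 normalized counts in morphine replicates 1, 2 and 3 and 2378, 2450 and 2367 in saline replicates 1, 2 and 3. The groups overlapped and all libraries lay within a ratio of 1.08. The log2 fold change was 0.05 ± 0.0549 (SE, limma adjusted p = 0.500), and its 95% interval of -0.09 to 0.19 lies close to 0.

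NGFR (ENSMMUG00000014603), the p75 receptor, was low and uneven. It had 17.0, 40.9 and 18.3 normalized counts in morphine replicates 1, 2 and 3 and 59.2, 7.02 and 26.4 in saline replicates 1, 2 and 3. The highest and the lowest value both came from saline libraries, an 8.44-fold range. Its log2 fold change of 0.05 ± 0.813 (SE, limma adjusted p = 0.972) had a 95% interval of -2.01 to 2.104. Its within-group SD on the log2 scale was 1.14, against a median of 0.532 over genes of a like level, and counting error ran from 12.9% to 37.8%. Its sign differed between tests: it was -0.27 in edgeR and -0.28 in DESeq2.

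**Figure D2:**
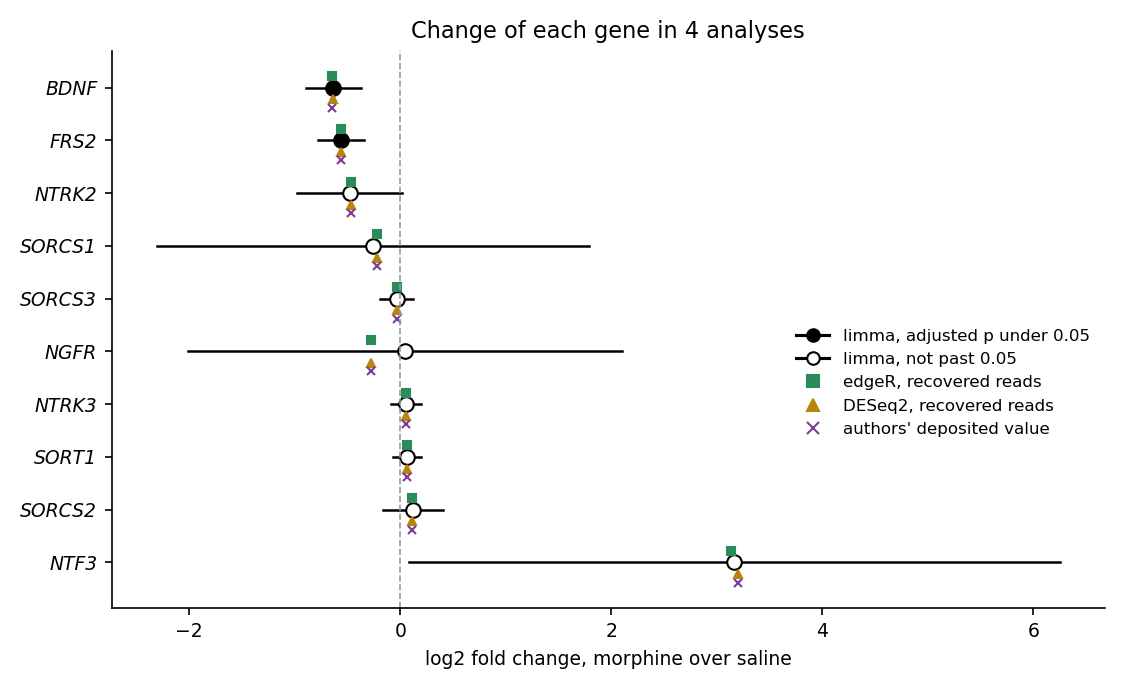
Log2 fold change of morphine over saline (horizontal axis) for the 10 genes: circles are limma values with their 95% intervals, filled where the adjusted p was under 0.05, and smaller symbols are edgeR, DESeq2 and the authors' deposited values. BDNF and FRS2 have intervals wholly below 0, and SORCS1, NGFR and NTF3 have the widest intervals.

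Sortilin family members are single-pass receptors that sort cargo between the Golgi apparatus, endosomes and the cell surface. SORT1 (ENSMMUG00000005812), which carries BDNF precursor and progranulin, had 7958, 7836 and 8011 normalized counts in morphine replicates 1, 2 and 3 and 7288, 7806 and 7752 in saline replicates 1, 2 and 3. All morphine libraries lay above all saline libraries, by a narrow margin between morphine replicate 2 and saline replicate 2. The log2 fold change of 0.06 ± 0.0521 (SE) did not pass (limma adjusted p = 0.430), with a 95% interval of -0.07 to 0.19, and was 0.029 without saline replicate 1.

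SORCS2 (ENSMMUG00000022416), a co-receptor of NGFR for BDNF precursor, had 720.5, 709.9 and 712.9 normalized counts in morphine replicates 1, 2 and 3 and 564.4, 674.6 and 748.8 in saline replicates 1, 2 and 3. The saline libraries spread on both sides of the morphine libraries (SD of 92.8 against 5.47 normalized counts, n = 3 libraries per group). Between the groups the log2 difference was 0.12 ± 0.112 (SE), with a 95% interval of -0.17 to 0.40 and a limma adjusted p of 0.470. It was 0.0076 without saline replicate 1 and 0.21 without saline replicate 3.

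SORCS3 (ENSMMUG00000003610), a relative found at postsynaptic sites, had 827.9, 764.4 and 827.3 normalized counts in morphine replicates 1, 2 and 3 and 796.3, 818.9 and 863.7 in saline replicates 1, 2 and 3. The groups overlapped, and the log2 fold change of -0.04 ± 0.0624 (SE, limma adjusted p = 0.706) had a 95% interval of -0.19 to 0.12.

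SORCS1 (ENSMMUG00000000433), a relative that binds the amyloid precursor protein, differed more between libraries of a group than between groups. It had 425.1, 666.4 and 1928 normalized counts in morphine replicates 1, 2 and 3 and 1209, 402.9 and 1916 in saline replicates 1, 2 and 3. Replicate 3 was the highest of each group, and the lowest were morphine replicate 1 and saline replicate 2. The highest library exceeded the lowest 4.79-fold, while counting error was 5.00% at the lowest count of 400 reads. The within-group SD on the log2 scale was 1.14, against a median of 0.101 over the 4862 genes tested with a mean within 2-fold of that of SORCS1, of which 30 (0.617%) had a larger SD. The log2 fold change was -0.26 ± 0.810 (SE, limma adjusted p = 0.836) with a 95% interval of -2.31 to 1.79. It turned positive without morphine replicate 1 (0.21) or without saline replicate 3 (0.23), and no direction can be given for SORCS1. The within-group SDs of SORCS2 and SORCS3 were 0.146 and 0.0629, which 34.1% and 87.8% of genes of a like level exceeded.

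**Figure D3:**
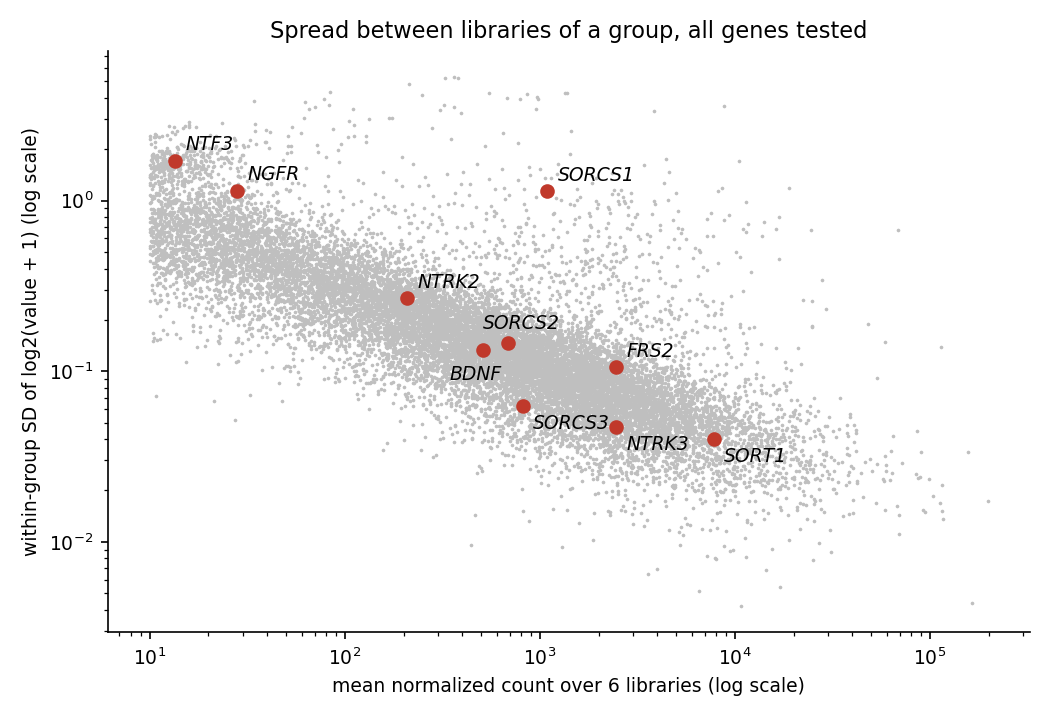
Within-group SD of log2(value + 1) against the mean normalized count over the 6 libraries, both on log scales, for all 16595 genes tested (grey) with the 10 genes in red. SORCS1, at 1.14, lies far above most genes of its level, NTF3 and NGFR lie in the noisy range of low counts, and the other 7 genes lie within the main band.

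FRS2 (ENSMMUG00000010819), an adaptor anchored at the membrane that links Trk and FGF receptors to the Ras-ERK pathway, had 2054, 1822 and 2068 normalized counts in morphine replicates 1, 2 and 3 and 2742, 3171 and 2856 in saline replicates 1, 2 and 3. All morphine libraries lay below all saline libraries with a clear gap. The means were 1981 ± 138 and 2923 ± 222 normalized counts (SD, n = 3 libraries per group). FRS2 was 1.47-fold lower in morphine, a log2 difference of -0.56 ± 0.0867 (SE), with a 95% interval of -0.78 to -0.34 and a limma adjusted p of 0.0109. FRS2 passed in each of the 6 fits that left out 1 library, at -0.61 to -0.50. In the same libraries 6 pan-neuronal markers fell and 3 rose, and 5 astrocyte markers fell and 2 rose, and their part in the fall of FRS2 was not tested.

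Of 116 other genes of the pathway that were tested, in 9 lists, 42 were called: 14 rose and 28 fell. That is 36.2%, against 27.9% of all genes tested. A mean of at least 50 normalized counts was reached by 96.6% of these pathway genes. A separate fit of only the genes at that level, with its own adjustment, called 35.8% of them. The 36.2% is from the main fit, so it is not at a like threshold with the 35.8%. The separate fit itself called 53 pathway genes. The median log2 fold change of the 116 pathway genes was -0.09. The counts depend on the test. Of the 116 genes edgeR called 68, beside 34.0% of all genes, and DESeq2 called 70, beside 36.8% of all genes. In the authors' deposited comparison 69 of the 116 were called, beside 34.1% of all genes. In each of these tests the share of pathway genes called was well above that of all genes. For these tests no share was worked out for genes of a like level. Limma without 1 library called 29 to 32 of the pathway genes. The shifts in marker genes given above run through the same libraries, and their part in the list counts was not tested.

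Among close relatives of the 10 genes, SORL1, a sorting receptor with a sortilin-like domain, fell and FRS3, the second adaptor of the FRS2 kind, rose. SORL1 went from 12362 ± 270 in saline to 9936 ± 105 normalized counts in morphine libraries (SD, n = 3 libraries per group) and so fell by 0.31 ± 0.0469 on the log2 scale (limma adjusted p = 0.00988). FRS3 rose by 0.24 ± 0.0642 on the log2 scale (limma adjusted p = 0.0475), opposite to FRS2. FRS3 passed in 1 of the 6 fits that left out 1 library, the one without saline replicate 1, and did not pass with TMM scaling.

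Of 11 genes tested that cut, carry or release neurotrophin precursors or control this step, 4 fell, 1 rose and 6 did not pass. Among all genes tested 15.0% fell and 12.9% rose. The median log2 fold change of the list was -0.33. PCSK1, a proprotein convertase of dense-core vesicles, went from 4104 ± 262 to 2511 ± 103 normalized counts (SD, n = 3 libraries per group) and fell by 0.71 ± 0.0696 on the log2 scale (limma adjusted p = 0.0041). CPE, a carboxypeptidase and sorting partner of BDNF precursor, fell by 0.33. PLAT, the tissue plasminogen activator, whose product plasmin cuts BDNF precursor, fell by 0.73, and SERPINI1, the neuronal inhibitor of PLAT, fell by 0.58. All 4 falls passed in each of the 6 fits without 1 library. The 1 rise was that of PCSK2, another proprotein convertase, named after its values were seen. PCSK2 rose by 0.29 ± 0.0507 on the log2 scale (limma adjusted p = 0.015), opposite to PCSK1. FURIN, a further convertase named after its values were seen, had a log2 fold change of 0.18 (limma adjusted p = 0.0953). FURIN passed as a rise in edgeR (adjusted p = 0.0376).

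Sorting partners and ligands of sortilins moved both ways: of 11 tested, 2 rose and 3 fell, beside 12.9% and 15.0% of all genes tested. GRN, which encodes progranulin, a ligand of SORT1, went from 2118 ± 68.9 to 2727 ± 43.5 normalized counts (SD, n = 3 libraries per group) and rose by 0.37 on the log2 scale, and LRPAP1, a chaperone of LDL receptor relatives that also binds sortilins, rose by 0.44. Both passed in all 6 fits without 1 library. GRN is strongly expressed by microglia, and of 7 microglia markers 4 rose and 2 fell in these libraries, a relation that was not tested. VPS29, a retromer subunit, fell by 0.27 and HTT, which takes part in BDNF transport, fell by 0.25. In the 6 fits without 1 library 0 or 1 gene of this list fell: VPS29 passed in none of them and HTT only in the one without saline replicate 1.

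Of 33 Trk adaptors and members of the Ras-ERK cascade 3 rose, 4 fell and 26 did not pass, with a median log2 fold change of -0.07. In limma 12.9% of all genes tested rose and 15.0% fell. SHC1, an adaptor that binds activated Trk receptors, had 1544 ± 5.78 normalized counts in saline and 2182 ± 20.3 in morphine libraries (SD, n = 3 per group) and rose by 0.50 ± 0.0441 (SE, limma adjusted p = 0.0034). SH2B2, another receptor adaptor, rose by 0.54. The ERK-activated kinases RPS6KA1 and RPS6KA3 moved in opposite directions: RPS6KA1 rose by 0.62 and RPS6KA3 fell by 0.63. The other falls of this list, named after their values were seen, were those of PTPN11, KIDINS220 and GAB1. They fell by 0.55, 0.38 and 0.31 (limma adjusted p = 0.0131, 0.00866 and 0.0383). In edgeR 9 genes of this list rose and 11 fell, beside 16.3% and 17.7% of all genes tested.

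Of 21 genes of the phospholipase C gamma and PI3K-AKT branches 4 rose and 6 fell, beside 12.9% and 15.0% of all genes tested. Without 1 library 2 to 4 rose and 3 or 4 fell. ITPR1, the receptor that releases calcium from the endoplasmic reticulum, went from 9925 ± 263 to 6127 ± 83.3 normalized counts (SD, n = 3 libraries per group) and fell by 0.70 ± 0.0485 on the log2 scale (limma adjusted p = 0.00226). PIK3CA, a catalytic subunit of PI3 kinase, fell by 0.88 and PIK3R1, a regulatory subunit, fell by 0.67.

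Of 15 partners of the p75 receptor 3 fell, 0 rose and 12 did not pass, where 15.0% of all genes tested fell and 12.9% rose. RTN4 (Nogo) and OMG, both ligands of the receptor complex that p75 joins on axons, fell by 0.40 and 0.37, and ADAM10, a membrane protease, fell by 0.56. BEX3, a protein that binds the p75 death domain, had a log2 fold change of -0.18 ± 0.0594 (SE, limma adjusted p = 0.0828). In edgeR BEX3 passed as a fall (adjusted p = 0.0111). ARHGDIA, of the same list and named after its values were seen, passed as a rise in edgeR (log2 fold change 0.24, adjusted p = 0.029). The 3 limma falls passed in all 6 fits without 1 library.

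**Figure D4:**
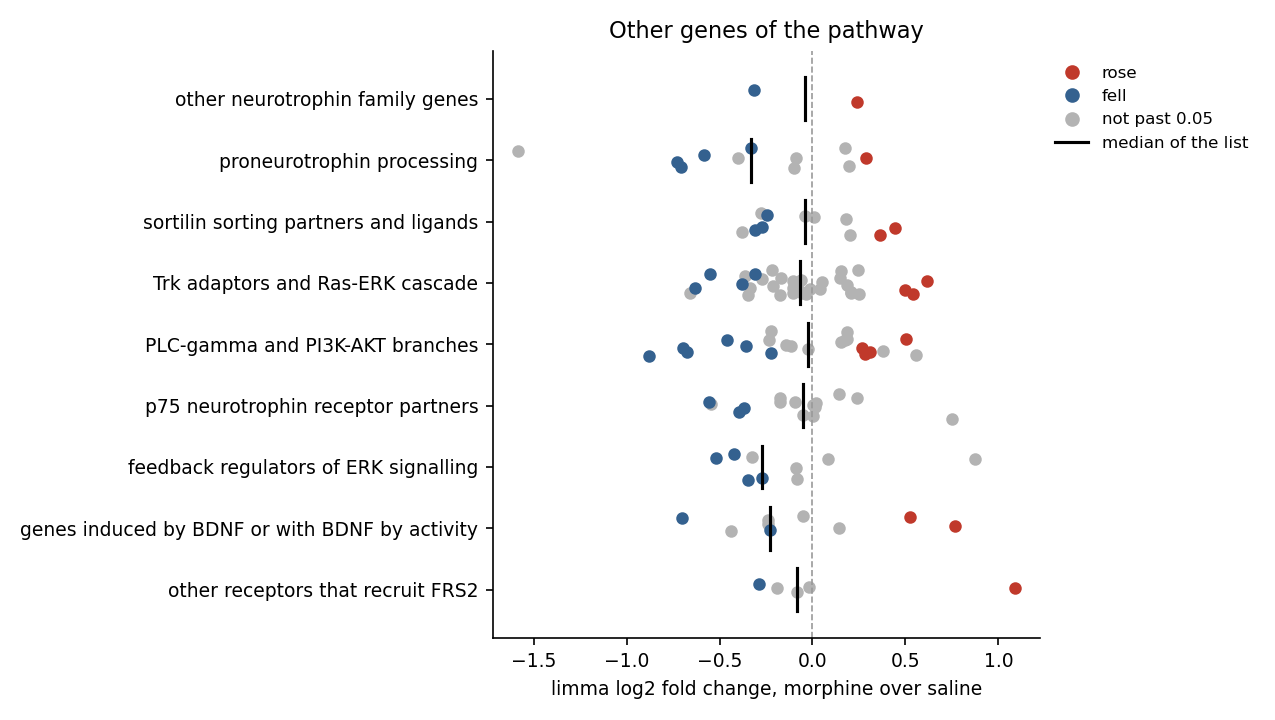
Limma log2 fold change of morphine over saline (horizontal axis) for the tested genes of 9 lists around neurotrophin signalling, 1 point per gene, red where it rose, blue where it fell, grey where it did not pass an adjusted p of 0.05; black bars are list medians. The lowest medians are those of precursor processing (-0.33), feedback regulators of ERK (-0.27) and genes induced by BDNF or with it (-0.23).

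A list of feedback regulators of ERK signalling, which also held transcription factors, had 4 falls and 0 rises among 9 tested. Over all genes tested 15.0% fell and 12.9% rose. The median log2 fold change of the list was -0.27. DUSP4, DUSP5 and DUSP6 were listed as well but had no value under their symbols. SPRED1 went from 3917 ± 102 to 2738 ± 169.7 normalized counts (SD, n = 3 libraries per group) and fell by 0.52 ± 0.0653 (SE, limma adjusted p = 0.00672). The inhibitors SPRY2 and SPRY4 fell by 0.27 and 0.35, and the transcription factor ETV1 fell by 0.42. SPRED1 passed in all 6 fits without 1 library, while SPRY2 passed only without saline replicate 3, SPRY4 only without saline replicate 2 and ETV1 only without saline replicate 2 or 3. In those 6 fits 1 to 3 genes of this list fell and 0 or 1 rose. ETV4, another transcription factor, named after its values were seen, had the largest change of the list, a log2 fold change of 0.87 that did not pass in limma (adjusted p = 0.097) and passed in edgeR (adjusted p = 0.0303) and DESeq2 (adjusted p = 0.0013).

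Of 9 genes that BDNF induces, or that neuronal activity induces along with it, 2 rose and 2 fell, beside 12.9% and 15.0% of all genes tested. EGR2, a transcription factor, went from 708.2 ± 15.5 to 434.8 ± 14.4 normalized counts (SD, n = 3 libraries per group) and fell by 0.70 ± 0.0521 on the log2 scale (limma adjusted p = 0.00263). ARC, a postsynaptic protein, fell by 0.23 but passed in none of the 6 fits without 1 library. The neuropeptide genes NPY and SST rose by 0.77 and 0.53, where SST is also among the inhibitory neuron markers, of which 3 of 13 rose and 2 fell. In edgeR 2 genes of this list rose and 4 fell, beside 16.3% and 17.7% of all genes tested.

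Receptors other than Trk that recruit FRS2 showed 1 rise and 1 fall among 5 tested, beside 12.9% and 15.0% of all genes tested. FGFR2 had 1684 ± 49.0 normalized counts in saline and 1380 ± 66.0 in morphine libraries (SD, n = 3 per group) and fell by 0.29 (limma adjusted p = 0.023). RET, the receptor of GDNF family ligands, had a low level of 30.0 ± 3.23 in saline and 66.6 ± 19.5 normalized counts in morphine libraries (SD, n = 3 per group) and rose by 1.09 (limma adjusted p = 0.0226). FGFR1 had a log2 fold change of -0.19 (limma adjusted p = 0.0503) and ALK one of -0.09. FGFR2 passed in 1 of the 6 fits without 1 library, the one without morphine replicate 3, and RET in those without morphine replicate 2 or 3.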

How the data were processed

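Bowtie2 2.1.0, StringTie, DESeq2 1.18.1 and the build hg19 are named in the submitters' processing notes, with no role for each, while the gene identifiers are those of rhesus genes. Build, annotation and strand setting are therefore not given in the sources used here, and no coordinates are printed. The main table deposited by the authors gives 23191 genes a normalized signal in each library, which per the file headers and the values is a read count divided by that library's size factor. It also holds the authors' log2 fold changes with standard errors, a test statistic (a score) and p-values, and a second deposited table repeats 2332 of the genes. Groups were taken from the sample titles, and all library columns were mapped. Of the identifiers 66.6% could be given a symbol. MAGED1, with several identifiers for 1 symbol, was left out of its list.

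The main test was limma 3.58.1 (R 4.3.3) applied to log2(value + 1), which understates the change of low genes, for genes with a mean of at least 10, with group as the only term. P-values were two-sided and Benjamini-Hochberg adjusted over all 16595 genes. Reads were recovered by dividing each value by what 1 read is worth, and 100% of values came out whole within 0.001. On these recovered reads DESeq2 1.42.0 called 6105 genes and edgeR 4.0.16 called 5635. These tests, other scalings (TMM, upper quartile), filters, pseudocounts (0.5 and 5), an intensity trend, a replicate block, each library left out and the authors' comparison were the alternatives. The limma and edgeR fits were also run on simulated counts. These had independent libraries, the same spread setting for all genes and far fewer changed genes than were called here. They hold no shared animals, so they do not check the error rate in these data. Counting errors and floors cover counting error only.

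The 10 genes and the lists were chosen with earlier results of these data known. The rule for named genes took all 10, up to 4 members of each pathway list with the smallest adjusted p, and the 3 genes most correlated with BDNF. Markers are given mainly as list counts and sums. Not every gene that the rule took is reported here. Plots were made in matplotlib 3.10.9 (Python 3.11.15).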

Additional observations from a re-analysis of the deposited data

How the results depend on the processing

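The falls of BDNF and FRS2 passed in 16 of 17 alternatives each, the exception being the replicate block, with limma adjusted p-values of 0.0522 for BDNF (log2 fold change -0.63) and 0.0664 for FRS2 (-0.56). Over the alternatives the adjusted p ranged from 1.51e-05 to 0.0522 for BDNF and from 4.13e-12 to 0.0664 for FRS2. The replicate number showed no pairing, since deviations from the group means correlated at -0.0563, -0.00392 and -0.0284 between same-numbered libraries. With the block 0 of the 10 genes fell, 1577 genes were called in place of 4631, 15 pathway genes in place of 42 and 23 markers in place of 52. NTF3 passed in DESeq2 (log2 fold change 3.20) and in the authors' deposited comparison (3.20). It reached the mean set for testing only through the morphine libraries, so these calls are not evidence of a rise. Over the alternatives the adjusted p of NTF3 ranged from 0.0165 to 0.257. NGFR turned negative in DESeq2 (-0.28), in edgeR (-0.27), in the authors' deposited comparison (-0.28) and with a pseudocount of 5 (-0.015), and ran from -0.73 to 0.72 without 1 library. Without 1 library SORCS1 ran from -0.90 to 0.23 and SORCS3 from -0.061 to 0.0030, the highest without morphine replicate 2. Pathway genes called were 70 in DESeq2, 68 in edgeR, 68 with an intensity trend and 69 in the authors' deposited comparison. No filter on low values left 2993 genes called, and leaving out 1 library 2536 to 3181. The cause of these differences was not tested. NTRK2, NTRK3, SORT1 and SORCS2 kept their direction and stayed short of the threshold in all 17 alternatives, though without 1 library NTRK3 ran from 0.035 to 0.089, SORT1 from 0.029 to 0.078 and SORCS2 from 0.0076 to 0.21. NTF3 and NGFR fall below a minimum of 50 and have no value there. Counting error was 37.8% at the 7 reads of the lowest NGFR library, and NTF3 had 0 reads in 2 libraries.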
